A study of Danio rerio with 13 samples.

Results

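The genes described here encode enzymes that make nucleotides and one-carbon units: *ppat*, *gart*, *paics*, *atic* and *impdh2* of the purine pathway, *cad* and *umps* of the pyrimidine pathway, and *shmt1* and *shmt2*, which take one-carbon units from serine. They were chosen by name, with earlier results of these data known. A probe set was used only where the array annotation gave it 1 of these names and no other. That left 8 of the 9 genes, on 10 of 15502 probe sets, among 8793 named genes. *cad* and *shmt2* have 2 probe sets each, and *shmt1* was dropped because its only probe set carries another symbol too. The arrays measured acute lymphoblastic leukemia (ALL) cells of 13 adult zebrafish, 1 fish per array, sorted by FACS as GFP+ cells, both GFP-high and GFP-low, from the body without the head. Every fish carried lck:eGFP, which makes GFP under the zebrafish *lck* promoter. The study reports bright GFP in T cell ALL (T-ALL) and dim GFP in precursor-B cell (pre-B) ALL. Of the 13 fish, 3 were of the *hlk* line (hlk;lck:eGFP), a zebrafish model of T-ALL, and 10 were double transgenic (rag2:hMYC;lck:eGFP), with human MYC driven in immature lymphocytes by the zebrafish *rag2* promoter. The MYC of the original line is fused to a modified estrogen receptor, and no tamoxifen was given in the study. *hMYC;GFP* fish of both sexes were screened at 3 to 6 months of age. The titles divide the 10 into 4 *hMYC-1* and 6 *hMYC-2* fish, a division that the study made by clustering these same arrays, so a test between those 2 groups describes that division and is no independent evidence for it. In that clustering the study took *hlk* as its reference, and *hMYC-1* is its name for the ALL lying nearest to *hlk*. That choice can by itself make differences from *hlk* fewer or smaller in *hMYC-1* than in *hMYC-2*. The comparisons of each group with *hlk* are therefore not free of the division either. No arrays of normal lymphocytes were analysed here.

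Dividing cells need purine and pyrimidine nucleotides for RNA and DNA. The de novo purine pathway builds the purine ring on ribose phosphate, starting with the amidotransferase encoded by *ppat* and ending with the inosine monophosphate (IMP) that *atic* releases, and 2 of its steps, in the enzymes of *gart* and *atic*, add a one-carbon unit carried by folate. *impdh2* commits IMP to guanine nucleotides. *cad* encodes the large enzyme that opens pyrimidine synthesis, and *umps* the enzyme that closes it with uridine monophosphate. Serine hydroxymethyltransferases, in the cytosol (*shmt1*) and the mitochondrion (*shmt2*), move a carbon from serine to folate and make glycine. In mammalian cells, many of these genes are known as targets of MYC, and drugs against these pathways, such as methotrexate and mercaptopurine, are standard treatment of ALL.

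The deposited values are log2 levels per probe set, made by the authors with 1 normalization over all arrays, and a difference of 1 on this scale is a doubling. Tag controls, which match no zebrafish transcript, reached 5.68, and a level up to 5.68 is called background here. The medians of the arrays ran from 4.98 to 5.10. *GAPDH*, a control gene, is measured at both ends of its transcript. Its 3′ level exceeded its 5′ level by 4.69 on *hlk* replicate 1, against 1.09 to 2.49 on the other 12 arrays, and such a gap widens when RNA is degraded. Results that rest on *hlk* replicate 1 are therefore given with and without it. All 8 measured B cell markers were higher in both *hMYC* groups (summed level, as a mean over the markers, 5.71 to 5.91 in *hlk*, 8.64 to 10.02 in *hMYC-1* and 9.59 to 9.96 in *hMYC-2*). The 4 measured T cell markers read 5.35 to 6.21, 3.90 to 4.85 and 3.63 to 4.0 in the same order, with 1 of them called lower in *hMYC-1* and 3 in *hMYC-2*. Only 2 of the 4 were above background anywhere. *gata3*, which T cells need, was so on 3 of 3 *hlk* arrays and on none of the 10 *hMYC* arrays. *rag1* was so on 2 of 3 *hlk*, 4 of 4 *hMYC-1* and 2 of 6 *hMYC-2* arrays. Immature B and T cells of mammals share *rag1*, but the study reports far more of it in zebrafish T-ALL than in zebrafish pre-B ALL. Fewer cells of a type and less RNA per cell cannot be told apart in such bulk samples. The *hlk* and *hMYC* arrays differ in fish line, in transgene and in cell type markers at once. Those cannot be told apart as the source of a difference. Of 13 measured genes of proliferating cells, such as *pcna* and *mki67*, none was higher in either *hMYC* group and 1 was lower in *hMYC-1* (mean level 7.85 to 8.89 in *hlk*, 8.28 to 8.74 in *hMYC-1* and 7.76 to 8.73 in *hMYC-2*). Of 5 measured macrophage markers, 1 was lower in *hMYC-1* and 3 in *hMYC-2* and none was higher (mean level 6.09 to 6.49 in *hlk*, 5.80 to 6.18 in *hMYC-1* and 5.81 to 5.97 in *hMYC-2*), with *cd68* at 10.22 ± 0.16, 9.66 ± 0.16 and 9.68 ± 0.15 and the defining markers *marco* and *csf1ra* within background on every array. Markers of exocrine pancreas were above background for up to 4 of 6 measured genes on an *hlk* array and for 1 on each *hMYC* array, and none was called. The part of these markers in the results was not tested.

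*ppat* and *paics*, of the purine pathway, rose in both *hMYC* groups compared with *hlk* T-ALL, by 2.02-fold to 3.06-fold. *impdh2*, *cad* and *umps* passed the test in *hMYC-2* alone, and *gart*, *atic* and *shmt2* in neither group. All 8 had a positive difference in both groups, as did 7072 of the 15502 probe sets in *hMYC-1* and 6096 in *hMYC-2*. That of *shmt2*, close to background, turned to −0.01 in *hMYC-2* with further quantile normalization. By its other probe set *shmt2* was negative in both groups (−0.11 and −0.10). The median difference of the 8 came to 0.53 for *hMYC-1* and 0.71 for *hMYC-2*, and over all probe sets the medians were −0.03 and −0.06. The 8 genes were chosen with earlier results of these data known, so this comparison and the counts below are descriptions. The counts come from limma, in 1 fit over the 13 arrays, and a gene was called where its p-value, adjusted across the 15502 probe sets, was under 0.05. An unadjusted p under 0.05 was reached by 5 of the 8 in *hMYC-1* and by 7 in *hMYC-2*. Over all 15502 probe sets it was reached by 4694 and 5679. In *hMYC-1* 2 of the 8 were called higher and none lower, where 18.8% of all probe sets were called, 9.13% higher and 9.63% lower. In *hMYC-2* 5 of the 8 were called higher and none lower, where 24.7% of all probe sets were called, 11% higher and 13.7% lower. With the replicate number as a block, 3 of these 5 (*ppat*, *paics* and *impdh2*) passed in *hMYC-2*. In that fit *hMYC-2* replicates 5 and 6, numbers that no other group has, drop out of the comparison. The block fit also called fewer of all probe sets, as counted in the last section, so lost calls cannot be laid to pairing. For the mean of both *hMYC* groups 4 of the 8 (*ppat*, *paics*, *impdh2* and *cad*) were higher and none lower, where 24.7% of all probe sets were called, 11.3% higher and 13.3% lower. The calls of *cad*, and the medians of the 8 above, use its brighter probe set. By the other one *cad* was called neither in *hMYC-1* (0.14, adjusted p = 0.813) nor in *hMYC-2* (0.42, 0.321) nor for the mean (0.28, 0.501). Without *hlk* replicate 1 the counts were 3 in *hMYC-1*, 4 in *hMYC-2* and 3 for the mean, with *atic* called in each and *cad* and *umps* in none. The call of *impdh2* for the mean was among those lost (0.34, adjusted p = 0.097). Over the fits with 1 array left out, 2360 to 3020 of all probe sets were called in *hMYC-1*. The range was 3320 to 3846 in *hMYC-2* and 3317 to 3830 for the mean. With all arrays these counts were 2909, 3822 and 3825. The 3 comparisons share the same 3 *hlk* arrays. Because nearness to *hlk* set the *hMYC* groups, and the groups differ in size, the lower counts in *hMYC-1* cannot be read as a separate result. When arrays were shifted to equal levels of housekeeping genes, the share of all called probe sets that were higher moved from 48.7% to 74.9% in *hMYC-1* and from 44.6% to 66.2% in *hMYC-2*, and the median over all probe sets to 0.19 and 0.07.

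**Figure D1:**
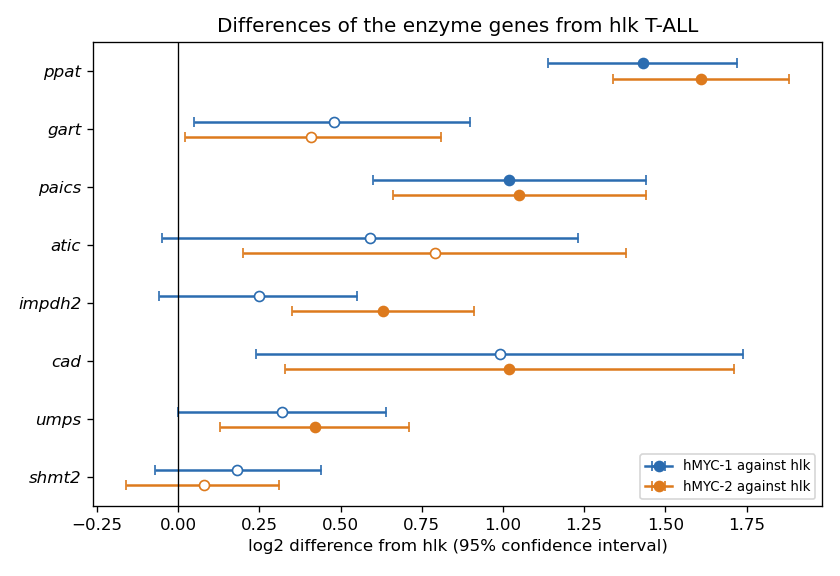
Differences of the 8 enzyme genes from *hlk* T-ALL (log2, horizontal axis) with 95% confidence intervals from limma, for *hMYC-1* and *hMYC-2* ALL, with filled points for genes that passed the test. All 16 points lie to the right of 0, and the intervals of *ppat* and *paics* stand farthest from it.

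*ppat*, the first committed enzyme of purine synthesis, had the largest difference of the 8. It read 8.19, 8.53 and 7.87 on the *hlk* arrays, and 9.67, 9.68, 9.53 and 9.62 on the *hMYC-1* arrays. The 6 *hMYC-2* arrays ran from 9.56 to 9.92 with a median of 9.83. Every *hMYC* array lay above every *hlk* array, and the *hMYC* arrays were close together while the *hlk* arrays were not. The group means were 8.20 ± 0.33 (S.D., n = 3), 9.62 ± 0.07 (n = 4) and 9.81 ± 0.13 (n = 6). *ppat* rose by 1.43 in *hMYC-1* (S.E. 0.13, 2.69-fold, adjusted p = 9.52e-06) and by 1.61 in *hMYC-2* (S.E. 0.12, 3.06-fold, adjusted p = 1.25e-06). Only 467 of the 15502 probe sets (3.01%) had a larger difference in *hMYC-1*, and 447 (2.88%) in *hMYC-2*. *ppat* passed the test in both groups whichever array was left out, with an adjusted p of at most 6.04e-05, and under each other processing tried.

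*paics* carries out middle steps of the same pathway. In the zebrafish genome *ppat* and *paics* are neighbours whose annotated spans overlap. *paics* read 8.44, 9.27 and 8.26 on the *hlk* arrays and 9.88, 9.50, 9.76 and 9.55 on the *hMYC-1* arrays. On the *hMYC-2* arrays it ran from 9.60 to 9.86 with a median of 9.69. No *hMYC* array overlapped with *hlk*, but *hlk* replicate 2, at 9.27, came close to the lowest, at 9.50. With means of 8.66 ± 0.54, 9.67 ± 0.18 and 9.71 ± 0.10 (S.D., n = 3, 4 and 6), *paics* rose by 1.02 in *hMYC-1* (S.E. 0.19, 2.02-fold, adjusted p = 0.00249) and by 1.05 in *hMYC-2* (S.E. 0.18, 2.07-fold, adjusted p = 9.18e-04). The call held whichever array was left out (adjusted p at most 0.0125). It was lost in both groups with the shrinkage t that the methods name, as rewritten here. That test gives a local false discovery rate in place of an adjusted p (0.164 and 0.605). With all *hMYC* arrays taken as 1 group, *paics* passed there (0.0446).

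*ppat* and *paics* were the only 2 of the 8 for which every *hMYC* array lay above every *hlk* array, where 7.68% of all probe sets lay wholly above and 7.97% wholly below. *umps* was also free of overlap with *hlk* in *hMYC-1*, and *impdh2* in *hMYC-2*, where 11.3% and 10.3% of all probe sets lay wholly above.

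**Figure D2:**
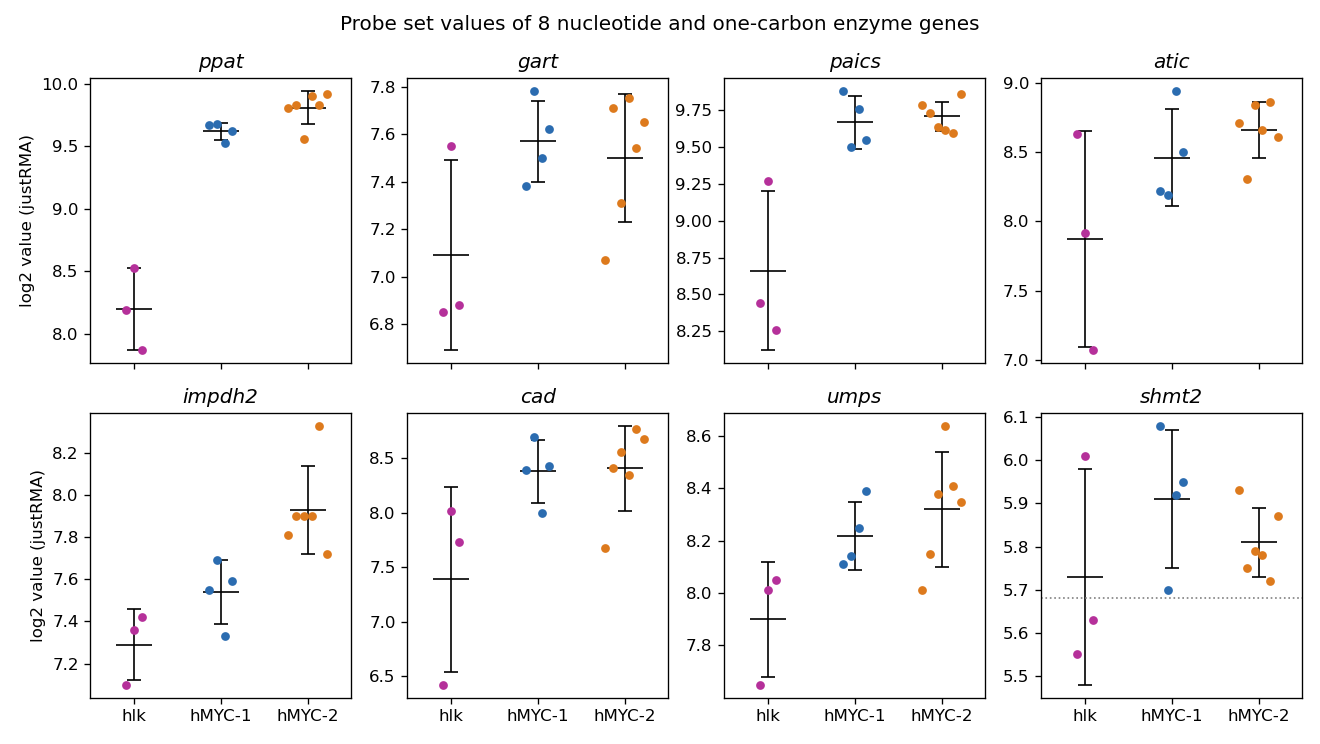
Level of each enzyme gene (log2, vertical axis) on every array, by group. Points are arrays, horizontal bars are group means with S.D. as error bars, with the dotted line in the panel of *shmt2* at the background of 5.68. The *hlk* arrays of *ppat* and *paics* lie below all 10 *hMYC* arrays, whereas *shmt2* stays near the background in all 3 groups.

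*gart* and *atic* encode the purine enzymes that use folate one-carbon units. *gart* read 6.85, 7.55 and 6.88 in *hlk* and 7.38, 7.78, 7.50 and 7.62 in *hMYC-1*, and ran from 7.07 to 7.75 with a median of 7.60 in *hMYC-2*. *hlk* replicate 2 lay inside the range of both *hMYC* groups. The difference was 0.48 in *hMYC-1* (95% confidence interval 0.05 to 0.90, adjusted p = 0.12) and 0.41 in *hMYC-2* (0.02 to 0.81, adjusted p = 0.121). Without *hlk* replicate 2 it was 0.71 and 0.64 and passed in both (adjusted p of 0.0192 and 0.0195), and without *hMYC-2* replicate 1 it was 0.50 in *hMYC-2* (0.048).

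*atic* read 8.63, 7.92 and 7.07 in *hlk*, the widest spread after *cad*, and 8.22, 8.19, 8.94 and 8.50 in *hMYC-1*. In *hMYC-2* it ran from 8.31 to 8.86 with a median of 8.69. *hlk* replicate 1, the array with the wide *GAPDH* gap, was the one *hlk* array inside the *hMYC* ranges. The difference was 0.59 in *hMYC-1* (−0.05 to 1.23, adjusted p = 0.203) and 0.79 in *hMYC-2* (0.20 to 1.38, adjusted p = 0.0514). Without *hlk* replicate 1 it was 0.97 and 1.17 and passed in both (0.018 and 0.0036), and without *hMYC-2* replicate 2 it was 0.86 in *hMYC-2* (0.0492). The 11 other ways of processing include the mean of a gene's probe sets, which leaves a gene with 1 probe set, such as *atic*, as it was. Of the 11, *atic* passed in 5 in *hMYC-2* and in 2 in *hMYC-1*. Among them were equal housekeeping levels (0.93, adjusted p = 0.0094, and 0.80, 0.036) and, chosen after seeing the data, the *GAPDH* gap as a covariate (1.13, 0.00107, and 0.83, 0.0101). The part of RNA quality in these values was not tested beyond that.

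*impdh2*, the branch point to guanine nucleotides, had the largest difference between the 2 *hMYC* groups. It read 7.10, 7.36 and 7.42 in *hlk*, 7.55, 7.69, 7.33 and 7.59 in *hMYC-1*, and 7.81, 7.90, 7.90, 7.90, 8.33 and 7.72 in *hMYC-2*. The *hMYC-2* arrays lay above all others, and *hMYC-1* replicate 3 lay among the *hlk* arrays. *impdh2* rose by 0.63 in *hMYC-2* (S.E. 0.13, 1.55-fold, adjusted p = 0.00325), where the call held whichever array was left out (at most 0.0175). The difference in *hMYC-1* was 0.25 (−0.06 to 0.55, adjusted p = 0.267). The call in *hMYC-2* was lost with the rewritten shrinkage t (local false discovery rate 0.853).

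In the pyrimidine pathway, *cad* was measured by 2 probe sets that disagree. The one with the higher mean read 6.42, 8.02 and 7.73 in *hlk* and 8.39, 8.70, 8.0 and 8.43 in *hMYC-1*, and from 7.68 to 8.77 with a median of 8.48 in *hMYC-2*. *hlk* replicate 1 was more than 1 unit below every other array, and the other 2 *hlk* arrays overlapped with *hMYC*. *cad* rose by 1.02 in *hMYC-2* (S.E. 0.32, 2.03-fold, adjusted p = 0.0341), and the difference of 0.99 in *hMYC-1* did not pass (S.E. 0.34, adjusted p = 0.0663). Without *hlk* replicate 1 these were 0.53 (0.163) and 0.50 (0.239), so the call rests on that array. It was also lost without any one of *hMYC-2* replicates 2 to 6, with values of 0.95 to 1.03 (adjusted p at most 0.0635), and with the replicate block (0.83, adjusted p = 0.102), whereas without *hlk* replicate 2 *cad* passed in *hMYC-1* too (1.30, adjusted p = 0.0251). In all, the call in *hMYC-2* was lost under 6 of 11 other ways of processing.

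The other *cad* probe set put the same array at the top. It read 8.68, 7.62 and 7.44 in *hlk*, 7.91, 7.51, 8.45 and 8.34 in *hMYC-1*, and 8.56, 8.06, 8.45, 8.26, 8.75 and 7.89 in *hMYC-2*. By this probe set the difference was 0.14 in *hMYC-1* (S.E. 0.31, adjusted p = 0.813) and 0.42 in *hMYC-2* (S.E. 0.29, adjusted p = 0.321). Without *hlk* replicate 1, chosen after seeing the data, it was 0.52 (0.229) and 0.80 (0.0427). With that array left out, both probe sets gave a difference of 0.50 to 0.80, and only the second passed, in *hMYC-2*.

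The gap between the *cad* probe sets moved with the *GAPDH* gap. The first minus the second was −2.26 on *hlk* replicate 1 and −0.45 on *hMYC-1* replicate 3 and −0.88 on *hMYC-2* replicate 1, the arrays with the widest *GAPDH* gap of their groups (4.69, 2.49 and 1.92). On the other 10 arrays it was between 0.02 and 1.19. In each of the 3 groups, the array with the widest *GAPDH* gap had the lowest value of the first *cad* probe set, and the second probe set was highest there in *hlk* and *hMYC-1*. With the *GAPDH* gap as a covariate, *cad* by its first probe set was higher by 0.67 in *hMYC-1* (adjusted p = 0.0201) and by 0.58 in *hMYC-2* (0.032). Where on the transcript each probe set lies was not analysed here, and the part of RNA quality was not tested further.

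**Figure D3:**
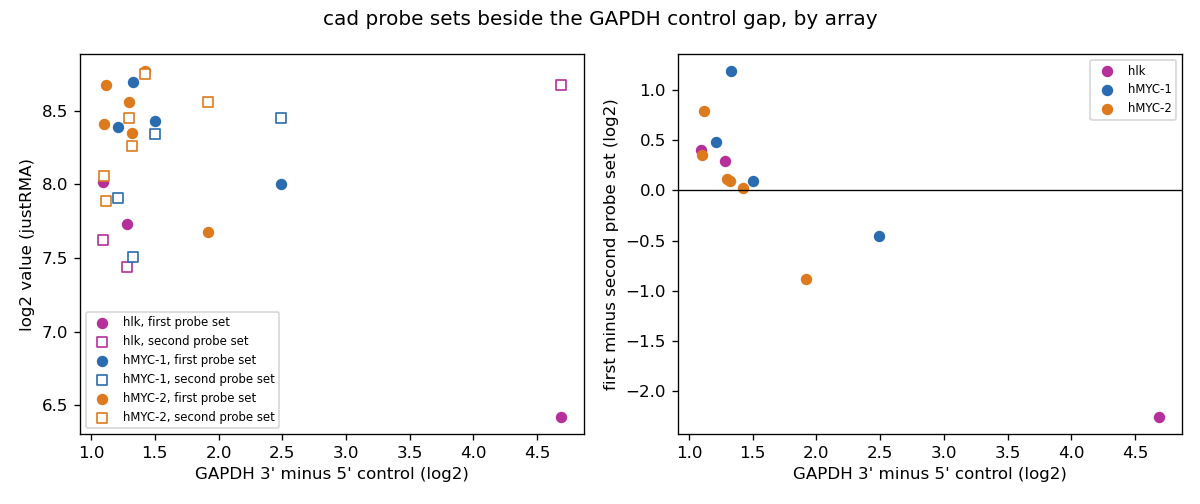
Levels of both *cad* probe sets (left, log2) and the first minus the second (right, log2) against the 3′ minus 5′ gap of *GAPDH* (log2, horizontal axes), by array, coloured by group, with filled circles for the first probe set and open squares for the second. On the right *hlk* replicate 1 stands alone at 4.69 and −2.26, and the widest-gap arrays of the other groups, at −0.45 and −0.88, are the only others below 0.

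*umps* read 7.65, 8.01 and 8.05 in *hlk*, 8.11, 8.14, 8.25 and 8.39 in *hMYC-1*, and 8.01 to 8.64 with a median of 8.37 in *hMYC-2*. All 4 *hMYC-1* arrays lay just above *hlk*, and the lowest *hMYC-2* array lay within the range of *hlk*. It rose by 0.42 in *hMYC-2* (S.E. 0.14, 1.34-fold, adjusted p = 0.0386) and the difference in *hMYC-1* was 0.32 (0.00 to 0.64, adjusted p = 0.162). The call was lost without *hlk* replicate 1 (0.29, adjusted p = 0.173) or *hlk* replicate 2 (0.47, 0.0519), without any one of *hMYC-2* replicates 3 to 6 (0.36 to 0.41, adjusted p at most 0.0675), and with the replicate block (0.31, 0.0977). Of the 9 fits of *hMYC-2* against *hlk* with an array left out, *cad* and *umps* each kept the call in 3. That of *umps* was lost under 7 of 11 other ways of processing.

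*shmt2*, the mitochondrial enzyme that feeds one-carbon units into folate, was close to background. Its brighter probe set read 5.55, 6.01 and 5.63 in *hlk*, 6.08, 5.70, 5.92 and 5.95 in *hMYC-1*, and 5.72 to 5.93 with a median of 5.79 in *hMYC-2*. The 3 groups overlapped, and 2 of 3 *hlk* arrays were within background. The difference was 0.18 in *hMYC-1* (−0.07 to 0.44, adjusted p = 0.334) and 0.08 in *hMYC-2* (−0.16 to 0.31, adjusted p = 0.652). The other probe set ran from 5.41 to 6.01 over the 13 arrays, with differences of −0.11 and −0.10. Both intervals of the brighter probe set end below the measured rises of *ppat* and *paics*. So close to background they do not bound the change of the transcript, and a smaller rise cannot be read from them.

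Between the 2 *hMYC* groups, none of the 8 genes passed the test in limma, where 0.419% of all probe sets were higher in *hMYC-2* and 0.116% lower. An unadjusted p under 0.05 was reached by 1 of the 8 and by 1748 of the 15502 probe sets. The 95% intervals show what could have been missed. For *ppat* the *hMYC-2* minus *hMYC-1* difference was 0.18 (−0.06 to 0.43), for *paics* 0.03 (−0.32 to 0.39), for *gart* −0.06 (−0.43 to 0.30) and for *umps* 0.10 (−0.17 to 0.37). *atic* at 0.20 (−0.34 to 0.74) and *cad* at 0.03 (−0.60 to 0.66) were less well bounded. *shmt2*, close to background and so not bounded by its interval, was at −0.11 (−0.32 to 0.11). *impdh2* was the exception in size, at 0.39 (0.13 to 0.64, 1.31-fold, adjusted p = 0.228), and its groups did not overlap, where 1.38% of all probe sets lay wholly above and 2.3% wholly below. A larger difference was found in 845 probe sets (5.45%). That *impdh2*, *cad* and *umps* passed against *hlk* in *hMYC-2* alone does not show that they differ between the *hMYC* groups. Those groups differ in size and were set by nearness to *hlk* on these same arrays.

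The enzyme genes varied most among the *hlk* arrays. Their S.D. had a median of 0.36 in *hlk*, 0.16 in *hMYC-1* and 0.21 in *hMYC-2*, and over all probe sets it was 0.21, 0.16 and 0.15. It ran from 0.17 (*impdh2*) to 0.85 (*cad*) in *hlk*, from 0.07 (*ppat*) to 0.35 (*atic*) in *hMYC-1* and from 0.08 (*shmt2*) to 0.39 (*cad*) in *hMYC-2*. *hlk* replicate 1, the array with the wide *GAPDH* gap, was the lowest *hlk* array for 5 of the 8 genes and replicate 2 the highest for 5. For *cad* replicate 1 read 6.42, against 8.02 and 7.73 on the others. The S.D. of *hlk* rests on 3 arrays and was not computed without replicate 1, so the part of that array in it was not tested. After group means were removed, the genes moved together only in part across the 13 arrays, with a positive Pearson correlation in 18 of 28 pairs and a median of 0.18. Those of *ppat* with *paics* (0.73) and *gart* (0.67) and of *paics* with *shmt2* (0.86) were among the highest, and that of *atic* with *cad* was −0.57, or −0.10 without *hlk* replicate 1. For both *paics* and *shmt2*, *hlk* replicate 2 was the highest *hlk* array. *shmt2* lies close to background, and correlations without replicate 2 were not computed. Arrays share their RNA quality and normalization across all genes, so these are descriptions only. Among 4015 other genes above background on all 13 arrays, those whose deviations were most like a member were *mocs3* for *ppat* (0.91), *klhdc2* for *gart* (0.86), *ada2a* for *paics* (0.93), *rida* for *atic* (0.92), *cul3a* for *impdh2* (0.88), *ddx17* for *cad* (0.98), *naa15a* for *umps* (0.84) and *zgc:114123* for *shmt2* (0.86). Without *hlk* replicate 1 these ran from 0.78 (*umps*) to 0.96 (*cad*). Each was picked as the highest of many correlations, and how high such a maximum runs by chance was not tested.

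The other genes of these pathways did not run one way. Of 114 listed, 58 were measured, 45 of them above background on some array. Of the 58, 10 were higher and 6 lower in *hMYC-1* and 13 higher and 5 lower in *hMYC-2*. Their median difference was 0.00 and −0.02, with the genes within background included. Of all probe sets, 18.8% and 24.7% were called. Values with 1 array left out were computed for these genes after seeing the data. They are given where a call was lost, and for some genes where a call was gained or the difference moved. Among the other de novo purine enzymes, 2 of 7 were higher in *hMYC-1* and 3 in *hMYC-2*, with none lower. *adsl*, whose enzyme works both between *paics* and *atic* and on the way to adenine nucleotides, read 8.47, 7.63 and 7.55 in *hlk*, 9.56, 8.96, 8.86 and 8.64 in *hMYC-1*, and 9.19 to 9.48 in *hMYC-2*. It rose by 1.12 (adjusted p = 0.00395) and 1.43 (3.18e-04) with no overlap. *prpsap2*, which encodes a partner of the synthetase that makes the ribose substrate of *ppat*, was 8.62, 8.58 and 8.57 in *hlk* and 9.32 to 9.60 over all *hMYC* arrays, a rise of 0.97 (2.32e-06) and 0.83 (3.78e-06). The synthetase gene *prps1b* rose by 0.84 in *hMYC-2* (0.00411), and its difference in *hMYC-1* was 0.57 (0.0593), or 0.71 without *hlk* replicate 1 (0.0311). Of 10 genes of purine salvage and breakdown, *ampd3b* was the only one called in *hMYC-1* (0.60, adjusted p = 0.0376) and *adkb* the only one in *hMYC-2* (0.59, 0.0109). *ampd3b* read 5.68, 5.84 and 5.68 in *hlk*, with 1 of 3 arrays above background. It kept its call without *hMYC-1* replicate 4 but lost it without any other single array (0.52 to 0.66, adjusted p at most 0.0951). *adkb* dropped to 0.37 without *hlk* replicate 3 but kept its call (0.044).

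The pyrimidine list held the largest rise among the pathway genes that were above background in all 3 groups. *ctps1a*, which makes CTP from UTP, read 9.22, 9.37 and 8.94 in *hlk*, 11.60, 11.91, 11.81 and 12.06 in *hMYC-1*, and 11.36 to 11.84 with a median of 11.68 in *hMYC-2*. It rose by 2.67 (S.E. 0.14, 6.36-fold, adjusted p = 3.51e-08) and by 2.49 (S.E. 0.13, 5.6-fold, 2.99e-08), and every *hMYC* array lay far above *hlk*. *dhodh*, the mitochondrial enzyme between *cad* and *umps*, rose by 0.73 (0.0126) and 0.77 (0.00451), and in *hMYC-1* was 0.64 without *hlk* replicate 3 (0.055). Other genes of the list went different ways: the uridine-cytidine kinase gene *uck2a* fell by 1.21 (8.06e-04) and 1.35 (1.49e-04), *cmpk* fell by 0.67 and 0.53, and *uckl1b* rose by 0.48 and 0.46. Without *hlk* replicate 1 both *cmpk* (−0.59, adjusted p = 0.0508, and −0.44, 0.102) and *uckl1b* (0.38, 0.13, and 0.36, 0.113) lost their calls, as they did without *hlk* replicate 3 (−0.61 and −0.47 for *cmpk*, 0.46 and 0.44 for *uckl1b*) and without some single *hMYC* arrays. Over the 10 measured genes of the list, 3 were higher and 2 lower in *hMYC-1*, and 4 higher and 2 lower in *hMYC-2*.

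None of 10 deoxynucleotide genes passed in *hMYC-1*, and 1 passed in *hMYC-2*, the nucleoside diphosphate kinase gene *nme2b.2*, which fell by 0.66 (adjusted p = 0.0338). It read 6.85, 5.88 and 5.89 in *hlk* and was within background on 5 of 6 *hMYC-2* arrays. Without *hlk* replicate 1 its difference was −0.34 (0.156), and it lost the call without any one of *hMYC-2* replicates 2 to 6 as well (−0.67 to −0.62, adjusted p at most 0.0622). *rrm2b*, a small subunit of ribonucleotide reductase, read 3.84, 7.80 and 7.30 in *hlk* and was within background on all 6 *hMYC-2* arrays. It did not pass in either group (adjusted p of 0.372 and 0.0954), and without *hlk* replicate 1, the one *hlk* array within background, the adjusted p was 0.0111 and 0.0014. *rrm1*, the large subunit of the same enzyme, had differences of −0.77 (0.201) and −0.80 (0.126), and *tyms*, which makes thymidylate, −0.50 (0.417) and −0.57 (0.264). Neither passed, and both overlapped between groups. Without *hMYC-2* replicate 3 *rrm1* passed in *hMYC-2* (adjusted p = 0.031).

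Folate one-carbon genes changed in both directions, with 4 of 11 higher and 3 lower in *hMYC-1* and 5 higher and 2 lower in *hMYC-2*. The higher ones include *slc25a32a*, a carrier of folate into the mitochondrion, which was within background on all 13 arrays and so has no fold (adjusted p of 1.51e-04 and 1.03e-04). *mthfd1b*, a cytosolic enzyme that supplies the folate form used by *gart* and *atic*, read 7.62, 8.58 and 6.72 in *hlk*, 9.26, 9.47, 9.25 and 9.27 in *hMYC-1*, and 9.19 to 9.56 in *hMYC-2*. It rose by 1.67 (S.E. 0.30, 3.19-fold, adjusted p = 0.0017) and 1.75 (S.E. 0.28, 3.36-fold, 5.71e-04), with no overlap. *mthfd2*, a mitochondrial enzyme of the folate pathway, went the other way and read 8.69, 7.56 and 9.88 in *hlk*, 5.94, 5.35, 5.88 and 6.18 in *hMYC-1*, and 6.12 to 7.46 with a median of 6.37 in *hMYC-2*. It fell by 2.87 (S.E. 0.47, 7.32-fold, 8.15e-04) and 2.06 (S.E. 0.43, 4.18-fold, 0.00382), with 1 *hMYC-1* array within background. In the glycine cleavage system, which also charges folate, *gcshb* was within background in *hlk* (3.85, 3.74 and 3.41) and at least 3.39-fold and 3.29-fold higher in *hMYC-1* and *hMYC-2* (adjusted p of 4.06e-07 and 1.7e-07), while *dldh* read 7.52, 4.49 and 7.56 in *hlk*, with replicate 2 within background, and was at least 1.79-fold lower in each *hMYC* group (0.00944 and 0.00164), all of whose arrays were within background. *mtr*, the methionine synthase gene, was within background on all 4 *hMYC-1* arrays and on *hlk* replicate 2 (5.41). Only 1 *hMYC-2* array was above it. *mtr* was at least 1.09-fold lower in *hMYC-1* than in *hlk* (0.00595). Its difference in *hMYC-2* was −0.34 (0.114), or −0.54 without *hlk* replicate 2 (0.0132). A bound such as these sets the mean of the group above background against the background of 5.68. For *dldh* and *mtr* that mean includes *hlk* replicate 2, within background itself, so the bound is not strict. For *dldh* that array lay inside the *hMYC-1* range.

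Of 3 genes of serine synthesis and uptake none was called in either group. Of these, *phgdh* and *psat1* were above background on 1 *hlk* array each and on no *hMYC* array, so a change cannot be read from them. Of 7 methionine cycle genes *ahcyl1* alone was lower in *hMYC-1* (fell by 0.70, adjusted p = 0.00838), with none called in *hMYC-2*. None of the 58 genes passed between the *hMYC* groups in limma. An unadjusted p under 0.05 was reached by 9 of them, and by 1748 of the 15502 probe sets.

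**Figure D4:**
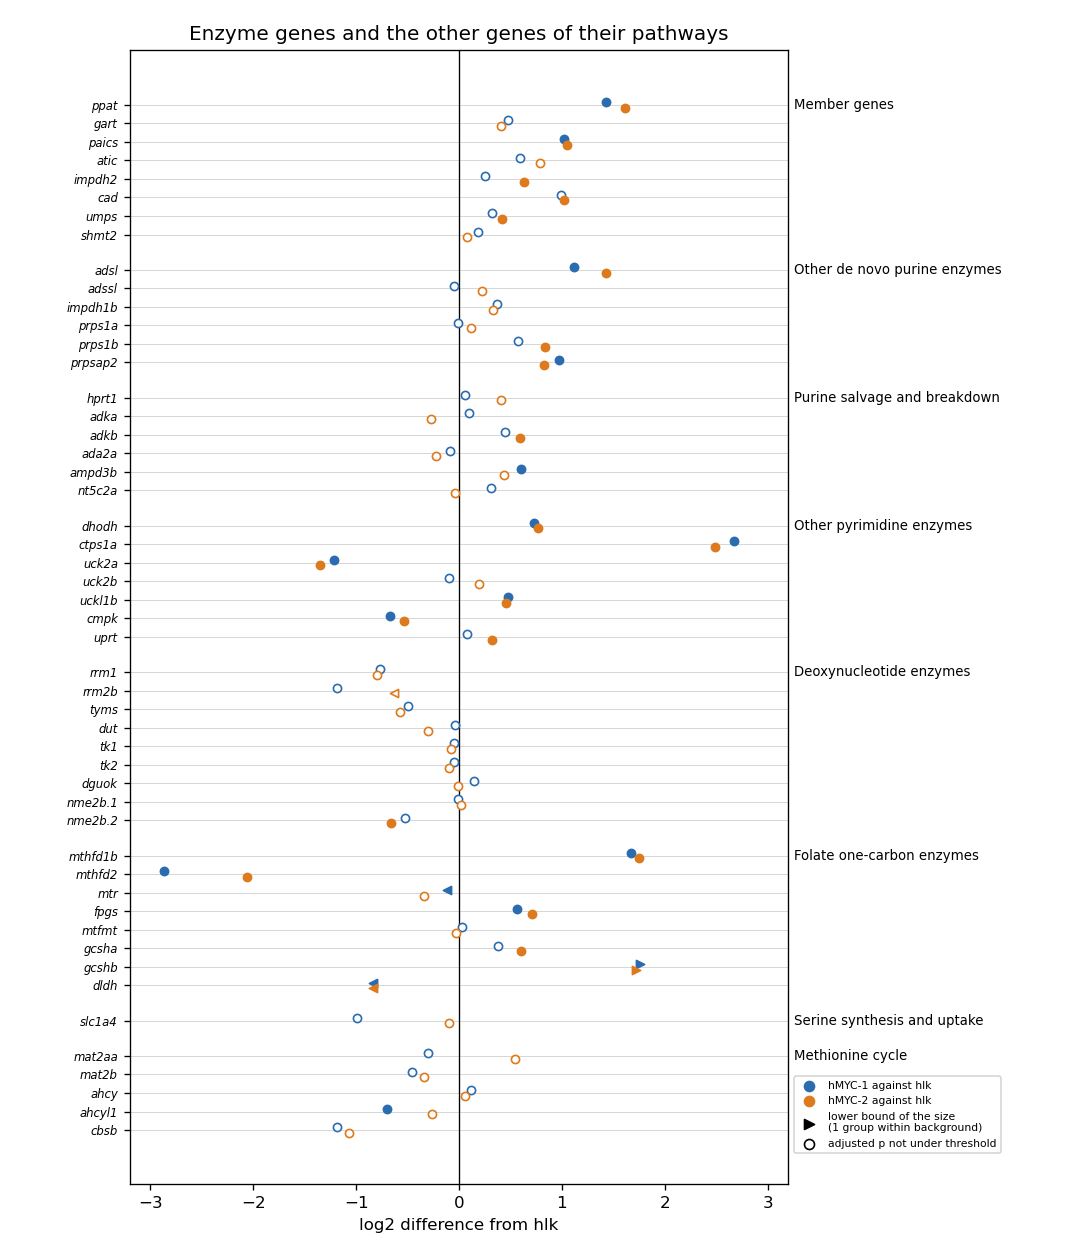
Differences from *hlk* T-ALL (log2, horizontal axis) of the 8 enzyme genes and of 42 of the 45 pathway genes above background in some array, by list. The other 3, with 1 group within background, allow no bound above 0. Filled symbols passed limma's test, open ones did not, and triangles are bounds where 1 group was within background. The rises of *ctps1a* and *mthfd1b* and the fall of *mthfd2* are larger than any difference of the 8 genes.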

How the data were processed

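Trizol RNA of sorted ALL cells was 3′-amplified and read on Affymetrix Zebrafish Genome Arrays. The deposited unit is log2, from a single justRMA run of the authors that included background correction, quantile normalization and probe summary. After removal of 115 controls, 15502 probe sets were tested with no filter. Symbols (10795 probe sets with 1, 135 with several, 4572 with none) were updated by gene ID (10711 matched, 1 changed). Where a gene had several probe sets, the brightest on average stands for it.

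Groups were compared with limma 3.58.1 in R 4.3.3 (lmFit, eBayes, 1 fit over 13 arrays, Benjamini-Hochberg over all probe sets). A bound is given where all arrays of 1 group were within background. Steps were tested on simulated data with few changed probe sets, where the rewritten shrinkage t called more unchanged probe sets than limma. On the arrays themselves it called fewer of all probe sets than limma, as counted in the last section. All measured members are named, and from each pathway list genes among the 6 with the smallest adjusted p in any comparison with *hlk*. The members and lists were chosen with earlier results of these data known. The planned comparison of *shmt2* with *shmt1* was not run, as *shmt1* had no probe set of its own. Same-numbered *hMYC-2* and *hlk* arrays deviated together (r of 0.32, 0.23 and 0.24). Those of *hMYC-1* and *hlk* (−0.15, 0.10 and −0.13) and of *hMYC-2* and *hMYC-1* (−0.32, 0.17, −0.16 and −0.05) did not. Arrays with unlike numbers were not correlated, so these values have no baseline. Replicate 1 had the widest *GAPDH* gap of its group in both *hlk* (4.69) and *hMYC-2* (1.92), and the part of RNA quality was not tested. Neither labels nor methods give the numbers a meaning, and the block is shown where it changes a call. The number of arrays limits the precision.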

Additional observations from a re-analysis of the deposited data

Results flagged for a closer look

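Of 20 sets of *hMYC-1* or *hMYC-2* arrays checked for a lone extreme value, 1 per member probe set and group, 2 held one, where chance gives about 1 in 20. *ppat* on *hMYC-2* replicate 3 read 9.56 (log2), with the nearest other array at 9.81, a gap of 0.694 of the group's range. *impdh2* on *hMYC-2* replicate 5 read 8.33, with the nearest at 7.90, a gap of 0.705 of the range. Both values lay above all *hlk* arrays.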

How the results depend on the processing

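Against *hlk*, *ppat* passed under every alternative run, *paics* under all but the shrinkage t, and *impdh2* in *hMYC-2* under all but the shrinkage t, while in *hMYC-2* the calls of *cad* and *umps* were lost under 6 and 7 of 11 other ways of processing and without any of several single arrays. *atic* gained a call under 5 of 11 in *hMYC-2* and 2 of 11 in *hMYC-1*. The mean of a gene's probe sets, among the 11, changes the values of *cad* and *shmt2* alone. For the mean of both groups *impdh2* lost its call with array weights and with the shrinkage t. Called members in *hMYC-1* were 1 with the shrinkage t, 4 with the *GAPDH* gap as covariate (chosen after seeing the data) and 2 to 4 with 1 array left out. In *hMYC-2* they were 3 with the compared groups alone, 3 with a floor at background, 1 with the shrinkage t, 3 with the replicate block and 3 to 6 with 1 array left out, and for the mean of both groups 2 with array weights and 2 with the shrinkage t. Called pathway genes were 10 (floor) and 8 (shrinkage t) in *hMYC-1*, 5 (shrinkage t) in *hMYC-2*, and 12 (array weights), 7 (shrinkage t) and 14 (replicate block) for the mean. Called probe sets in *hMYC-1* were 1879 (compared groups alone), 1637 (floor) and 1254 (shrinkage t), against 2909; in *hMYC-2* 2115 (floor), 595 (shrinkage t) and 2395 (replicate block), against 3822; for the mean 2186 (floor) and 1005 (shrinkage t), against 3825. Between the *hMYC* groups they were 153 (array weights), 55 (housekeeping), 55 (floor), 25 (replicate block) and 40 to 99 (1 array left out), against 83. The small differences that changed sign were *shmt2* in *hMYC-2* against *hlk* (−0.01 with further quantile normalization, −0.01 with the mean of its probe sets, −0.01 to 0.22 with 1 array left out) and, between the *hMYC* groups, *paics* (−0.00 with quantile normalization, −0.04 with housekeeping, −0.02 to 0.10 with 1 array left out), *cad* (−0.05 with housekeeping, −0.13 with the replicate block, −0.09 with the covariate, −0.10 to 0.17 with 1 array left out) and *gart* (−0.13 to 0.02 with 1 array left out). The cause was not tested. With the replicate block *cad* was also lost for the mean of both groups (0.90, adjusted p = 0.0552), and beyond the calls of *cad* and *umps* the block changed no member's call against *hlk*. The tests of *shmt2* minus *shmt1* were not run. Signal over background limits *shmt2*.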
